A study of Mus musculus with 4 samples.

Results

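The 9 genes followed here mark B cells and natural killer (NK) cells in regenerating mouse liver: Ighm, Cd79a, Cd79b and Jchain for B cells, and Nkg7, Klrb1c, Gzma, Gzmb and Prf1 for NK cells. The members were all probe sets whose only gene symbol in the platform annotation was one of these names, which gave 19 of the 34945 probe sets with 1 symbol. They stood for 8 of the 9 genes, out of 18193 genes in all, since the one Klrb1c probe set is also assigned to Klrb1b. Of the 19, 11 belonged to Ighm, 2 to Prf1 and 1 to each of the other genes. All 4 single-channel Affymetrix arrays were compared, 2 from the OGFRL1 group and 2 from the EGFP group. In the OGFRL1 group, nude mice (BALB/c nu/nu, which have no functional thymus and so lack mature T cells) had been given 1000000 human mesenchymal stem cells from bone marrow, engineered to express OGFRL1, by injection into the spleen. In the EGFP group, mice of the same strain had been given as many such cells expressing the green fluorescent protein EGFP. All mice of both groups had first been dosed 23 times with the liver toxin carbon tetrachloride at 0.25 ml/kg, had undergone partial hepatectomy on day 21, and gave liver on day 8 after the operation. Whether 2 arrays of the same group stand for different animals is not stated in the labels, and the p-values then reflect only how far these arrays lie apart, which may be technical.

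B cells recognise antigen through a surface immunoglobulin, whose heavy chain of the IgM class is encoded by Ighm and whose signalling subunits Ig-alpha and Ig-beta are encoded by Cd79a and Cd79b. Plasma cells, their secreting descendants, join IgM and IgA into polymers with the J chain, the product of Jchain. NK cells are lymphocytes abundant in liver that kill target cells by releasing granules: perforin (Prf1) opens the membrane, and the proteases granzyme A (Gzma) and granzyme B (Gzmb) enter and trigger death. Nude mice keep B cells and NK cells.

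None of the B cell and NK cell genes passed the test between OGFRL1 and EGFP livers. In the fit of all 20238 probe sets at or over the signal filter, 0 of the 13 member probe sets tested passed a limma adjusted p of 0.05, against 0.336% of all probe sets tested, and 2 of the 13 had an unadjusted p under 0.05, against 14.0%. With 1 probe set per gene, 0 of 6 member genes passed, against 0.511% of 11942 genes, and 0 of the 6 had an unadjusted p under 0.05, against 15.3%. Jchain and 3 of the 7 tested Ighm probe sets were lower on both OGFRL1 arrays than on both EGFP arrays, which makes 4 of 13 against 20.0% of all probe sets tested. Of the 3 Ighm probe sets, 1452535_at reached the filter only through the EGFP group. Gzmb, which was too dim to be tested, was also lower on both OGFRL1 arrays than on both EGFP arrays. The other 9 tested member probe sets overlapped between the groups, and in all 9 the EGFP arrays differed from each other by more than the group means did. EGFP 1 was the highest array for 8 of the 13, of which 4 were probe sets of Ighm, against 27.3% of all probe sets tested. Nkg7, also among the 8, was under the filter without EGFP 1, so the filter itself favoured its place in this count.

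Signals are MAS5 intensities on a linear scale. Tests were made on log2(signal + 3.51), and differences are OGFRL1 minus EGFP on that scale, which understates the change of dim probe sets. Member values come from the probe set fit and those of other genes from the gene fit, unless said otherwise. A probe set was tested when its mean over the 4 arrays reached 11.6, the median of such means; 13 member probe sets passed and 6 did not. A probe set near this limit can pass through the group in which it is brighter, and 4 of the 13 had a group mean under the limit: Nkg7, the dim Ighm probe set 1452535_at and both Prf1 probe sets. Median signals of whole arrays were 12.3 and 11.6 on OGFRL1 arrays 1 and 2, and 12.5 and 12.2 on EGFP arrays 1 and 2. Spike-in transcripts, meant to be equal on every array, lay lower in the OGFRL1 group, by a mean log2 difference of -0.43 over 4 Cre probe sets and -0.32 over 14 BioB, BioC and BioD probe sets, while the median over all 11942 genes was 0.04.

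**Figure D1:**
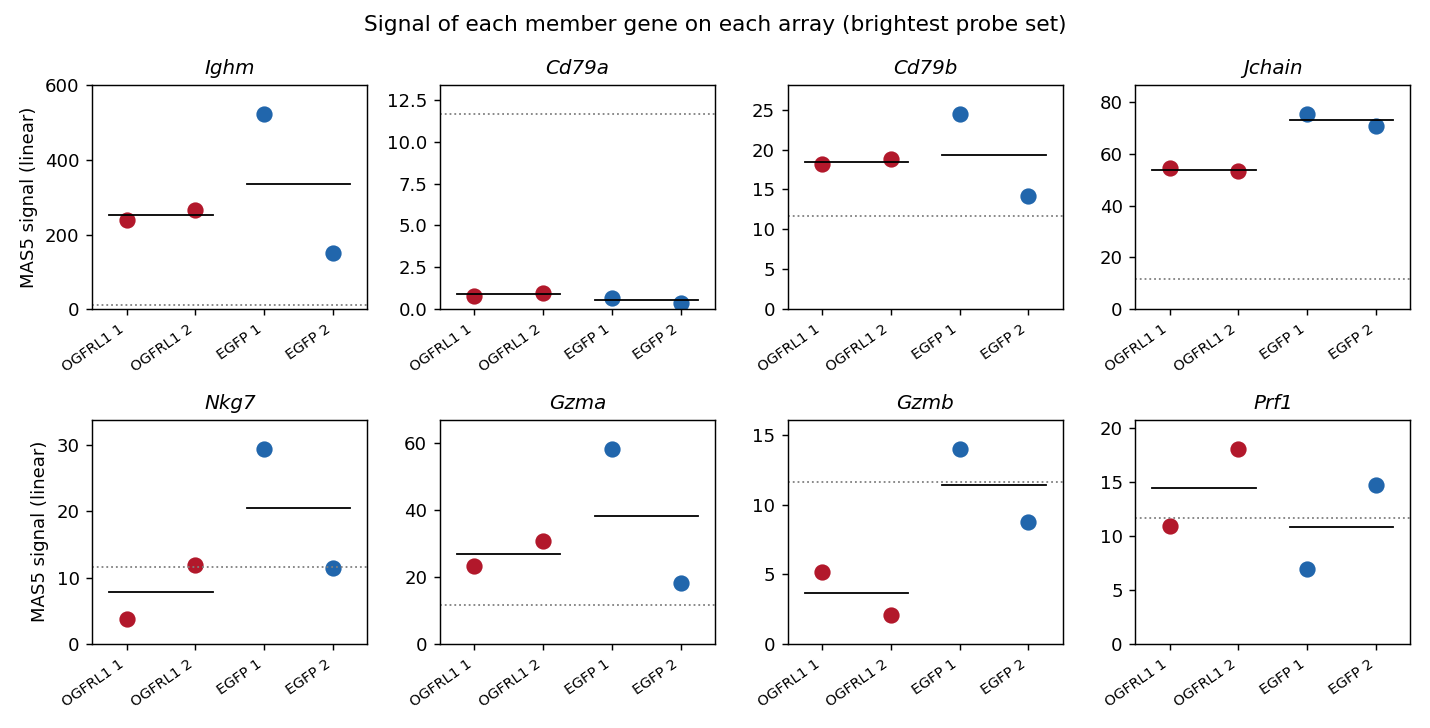
MAS5 signal (linear scale) of the brightest probe set of each of the 8 measured genes on each array, OGFRL1 arrays in red and EGFP arrays in blue; black bars are group means and the dotted line is the filter at 11.6. Jchain and Gzmb have both OGFRL1 points below both EGFP points, Cd79a lies under 1 on every array, and Ighm, Gzma and Nkg7 have EGFP 1 far above the other 3 arrays.

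Jchain was the B cell gene with the tightest replicates. Its signal was 54.6 and 53.2 on OGFRL1 arrays 1 and 2, against 75.4 and 70.8 on EGFP arrays 1 and 2. Both OGFRL1 arrays were thus lower than both EGFP arrays. The means were 53.9 ± 0.981 in OGFRL1 livers and 73.1 ± 3.22 in EGFP livers (SD, n = 2 arrays each). The log2 difference was -0.41 ± 0.19 (SE), which did not pass the test (limma adjusted p = 0.382). It was of about the size of the spike-in differences, and in the gene fit it was -0.51 after quantile normalization and -0.37 after scaling to equal medians. In whole tissue, fewer cells of a type and less RNA per cell cannot be told apart, which holds for every value given here.

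The promoters of Jchain and Gzmb are shown because these 2 single-probe-set genes were the ones lower on both OGFRL1 arrays. Each is the 250 bases before the RefSeq transcription start, GRCm38.p6, 5′ to 3′ on the gene's strand, with matches to the E-box motif CANNTG, a site of basic helix-loop-helix factors, in capitals.
Jchain, chr5:88527898-88528147, minus strand: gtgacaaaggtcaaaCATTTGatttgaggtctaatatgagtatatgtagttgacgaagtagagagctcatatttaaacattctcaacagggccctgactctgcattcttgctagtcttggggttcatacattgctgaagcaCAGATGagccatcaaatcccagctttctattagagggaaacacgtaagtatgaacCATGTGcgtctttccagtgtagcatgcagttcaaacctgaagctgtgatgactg
Gzmb, chr14:56262335-56262584, minus strand: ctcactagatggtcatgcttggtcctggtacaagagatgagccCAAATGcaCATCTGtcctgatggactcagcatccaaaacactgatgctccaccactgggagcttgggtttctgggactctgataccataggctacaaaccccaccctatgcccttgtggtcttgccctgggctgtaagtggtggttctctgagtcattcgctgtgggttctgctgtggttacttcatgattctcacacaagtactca
CANNTG, which reads the same on both strands, occurred 3 times before Jchain and 2 times before Gzmb, and 66.2% of 32851 RefSeq promoters of this length hold it. GGAA, the core bound by ETS factors such as PU.1, was searched on both strands and occurred 2 times before Jchain, with no overlap with an E-box, and 0 times before Gzmb; 93.4% of promoters hold it. The octamer ATGCAAAT of immunoglobulin promoters was in neither window and is held by 1.6% of all promoters on either strand. Promoter sequences were at hand for 7 of the 9 genes.

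Ighm was read by 11 probe sets, and those that passed the filter fell into 2 patterns. In the first pattern, 3 of 7 probe sets were lower on both OGFRL1 arrays. Probe set 1427351_s_at had 103 and 141 on OGFRL1 arrays 1 and 2, against 203 and 278 on EGFP arrays 1 and 2. Its means were 122 ± 27.0 in OGFRL1 livers and 240.2 ± 53.2 in EGFP livers (SD, n = 2 arrays each), a log2 difference of -0.95 ± 0.23 (SE). That missed the threshold over all probe sets (limma adjusted p = 0.139, unadjusted p = 0.00418). Probe set 1427329_a_at had the same order of arrays, with 37.8 and 53.7 on OGFRL1 arrays 1 and 2, against 68.3 and 88.8 on EGFP arrays 1 and 2. Its log2 difference was -0.74 ± 0.25 (limma adjusted p = 0.250, unadjusted p = 0.0197). The dim 1452535_at, at 9.55 and 6.76 on OGFRL1 arrays against 13.3 and 19.5 on EGFP arrays, differed by -0.76 ± 0.37 (adjusted p = 0.416).

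In the second pattern, 4 of 7 Ighm probe sets had EGFP 1 as the highest array and EGFP 2 as the lowest, with both OGFRL1 arrays between them. The brightest, 1427870_x_at, had 239.7 and 266 on OGFRL1 arrays 1 and 2, against 523 and 149.6 on EGFP arrays 1 and 2. Its OGFRL1 arrays lay close together, whereas the EGFP arrays differed by 1.78 on the log2 scale. The log2 difference between groups was -0.15 ± 0.50 (SE, limma adjusted p = 0.930). Probe sets 1425247_a_at, 1427756_x_at and 1425324_x_at had log2 differences of -0.13 ± 0.34, 0.15 ± 0.37 and 0.13 ± 0.42, with adjusted p of 0.904, 0.900 and 0.926. In them EGFP 1 exceeded EGFP 2 by 1.12 to 1.40 on the log2 scale. The Ighm probe sets therefore disagreed: the log2 difference ranged from -0.95 to 0.15 over the 7 tested, and where a value stands for the whole gene below it is that of 1427870_x_at alone. In Affymetrix naming, _x_at and _s_at mark probe sets with probes shared between transcripts; which immunoglobulin transcripts each one reads is not given in the files.

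**Figure D2:**
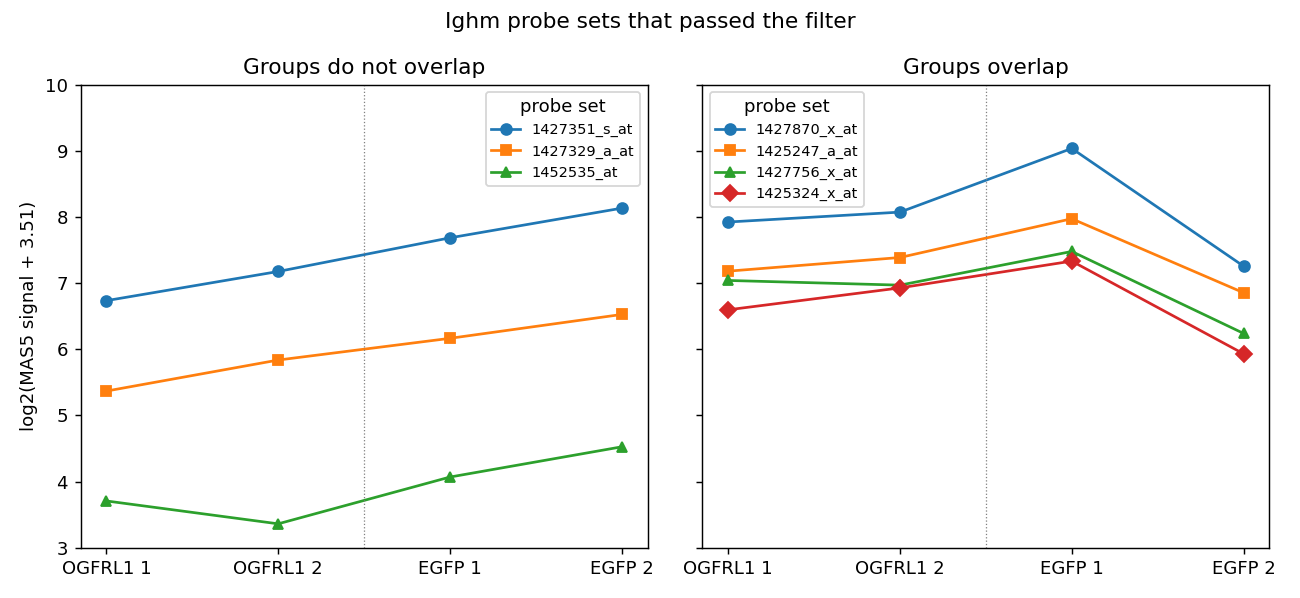
Signal of the 7 tested Ighm probe sets on each array, as log2(MAS5 signal + 3.51); lines only join the values of a probe set, OGFRL1 arrays on the left and EGFP arrays on the right. The 3 probe sets of the left panel are lower on both OGFRL1 arrays, and the 4 of the right panel peak on EGFP 1 and are lowest on EGFP 2.

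Which EGFP array was used decided the call for Ighm. Without EGFP 2, 1427870_x_at was lower in the OGFRL1 livers, with a log2 difference of -1.04 ± 0.16 in the gene fit (limma adjusted p = 0.0120). Without EGFP 1 the same probe set was higher in the OGFRL1 livers, by 0.74 ± 0.17 (adjusted p = 0.0469, and 0.0615 in the probe set fit). In the probe set fit without EGFP 1, 1427351_s_at passed with a log2 difference of -1.18 ± 0.22 (adjusted p = 0.0286). In each of these fits the lone EGFP array was assumed to vary as the OGFRL1 arrays did. The remaining 4 Ighm probe sets were under the filter, with signals from 0.719 to 9.94 on the OGFRL1 arrays and from 0.608 to 11.4 on the EGFP arrays. Of these, 1426196_at and 1451949_at were higher on both OGFRL1 arrays and the other two overlapped. A further 4 probe sets assigned to Ighm and variable or constant genes beside it were not members, and their highest value on any array was 11.3.

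The signalling subunits of the B cell receptor were dim. Cd79b had 18.1 and 18.8 on OGFRL1 arrays 1 and 2, against 24.4 and 14.2 on EGFP arrays 1 and 2. Both OGFRL1 arrays lay between the EGFP arrays, and the log2 difference was -0.019 ± 0.33 (SE, limma adjusted p = 0.986). Cd79a had 0.786 and 0.981 on OGFRL1 arrays, against 0.684 and 0.371 on EGFP arrays. Although the OGFRL1 values were higher, all 4 lay far under the filter, and in the fit without a filter the log2 difference was 0.12 (adjusted p = 0.898). The table gives no detection calls, so whether such values differ from background is not known.

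Among the NK cell genes, Nkg7, which encodes a membrane protein of cytotoxic granules, had 3.79 and 11.9 on OGFRL1 arrays 1 and 2, against 29.4 and 11.5 on EGFP arrays 1 and 2. OGFRL1 2 and EGFP 2 were nearly equal, so the groups overlapped. The log2 difference was -1.07 ± 0.54 (SE, limma adjusted p = 0.432). Gzma had 23.2 and 30.7 on OGFRL1 arrays, against 58.1 and 18.1 on EGFP arrays. Both OGFRL1 arrays again lay between the EGFP arrays, with a log2 difference of -0.27 ± 0.48 (adjusted p = 0.849), which was 0.49 without EGFP 1 and -1.03 without EGFP 2.

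Gzmb was dimmer than the filter, at 5.16 and 2.11 on OGFRL1 arrays 1 and 2, against 14.0 and 8.78 on EGFP arrays 1 and 2. Its means were 3.63 ± 2.15 in OGFRL1 livers and 11.4 ± 3.71 in EGFP livers (SD, n = 2 arrays each), and both OGFRL1 arrays were lower than both EGFP arrays. When all 34945 probe sets were fitted without a filter, the log2 difference of Gzmb was -1.07, with an unadjusted limma p of 0.0435 and an adjusted p of 0.454. In that fit 0 of 19 member probe sets passed, against 0.0% of all, and 4 had an unadjusted p under 0.05, against 10.5%. The 4 did not share a direction. Gzmb and the Ighm probe sets 1427351_s_at and 1427329_a_at were lower in OGFRL1 livers. The dim Ighm probe set 1426196_at was higher, with a log2 difference of 1.06.

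Perforin was read by 2 dim probe sets. Prf1 probe set 1450335_at had 10.9 and 18.0 on OGFRL1 arrays 1 and 2, against 6.96 and 14.7 on EGFP arrays 1 and 2, a log2 difference of 0.35 ± 0.42 (limma adjusted p = 0.766). Prf1 probe set 1451862_a_at had 8.20 and 11.5 on OGFRL1 arrays, against 11.3 and 16.4 on EGFP arrays, a log2 difference of -0.38 ± 0.37 (adjusted p = 0.702). The groups overlapped in both, and each probe set reached the filter only through the group in which it was brighter, so no direction is read from them. The probe set shared by Klrb1c, the gene of the NK1.1 antigen, and its neighbour in the family Klrb1b was not a member; it had 7.59 and 15.9 on OGFRL1 arrays, against 2.35 and 16.1 on EGFP arrays, with a gap between replicates on both sides.

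**Figure D3:**
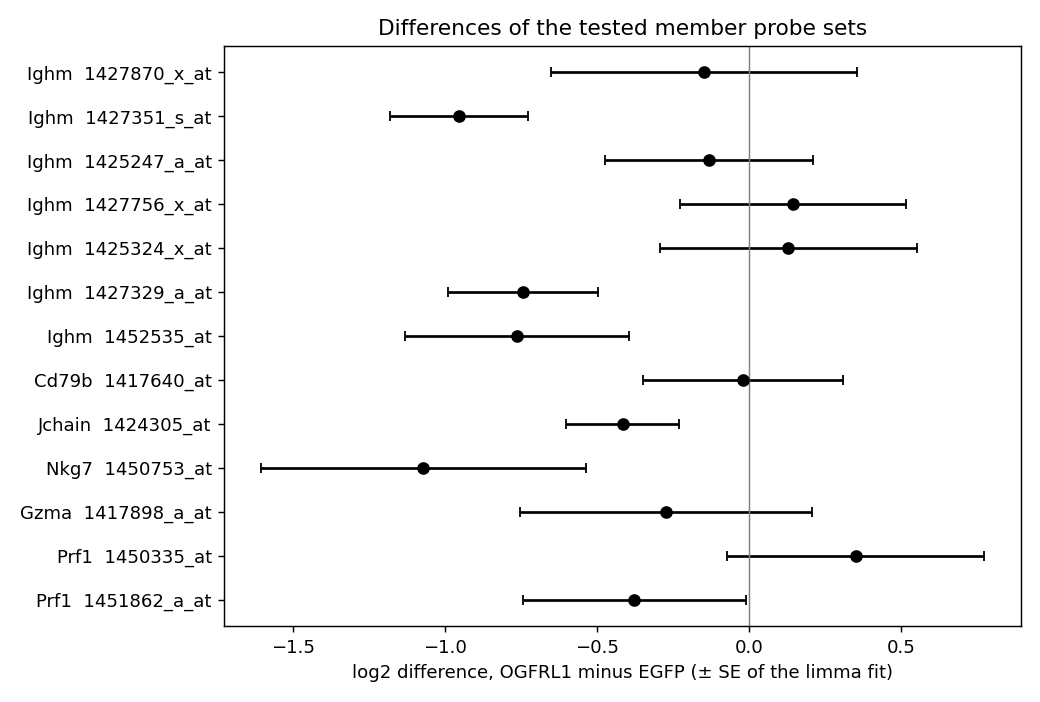
Log2 difference, OGFRL1 minus EGFP, of the 13 tested member probe sets, with the SE of the limma probe set fit as bars. The values run from -1.07 for Nkg7 to 0.35 for 1 of the 2 Prf1 probe sets, and 0 of 13 passed an adjusted p of 0.05.

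Taking all 19 member probe sets, 5 were lower on both OGFRL1 arrays, against 20.1% of all 34945 probe sets with 1 symbol, and 3 were higher on both, against 21.5%. The 3 that were higher were Cd79a and 2 Ighm probe sets, all under the filter. Of the 13 tested, 4 were lower without overlap, against 20.0% of the probe sets tested, and 0 were higher, against 25.9%. But 3 of these 4 belong to 1 gene, Ighm, and 1 of the 3, 1452535_at, reached the filter only through the EGFP group. No direction is read from these counts.

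Other genes of the same cells gave 0 calls as well. Of 20 further B cell genes, 19 had a probe set of 1 symbol, 12 of these were under the filter and 7 were tested. Among them 0 were called higher, against 0.36% of all genes, and 0 lower, against 0.151%, and the median log2 difference was 0.24. Without the filter the median over the 19 was -0.09, so no direction is read from this list. The brightest were Cd72, an inhibitory receptor (0.051 ± 0.49, limma adjusted p = 0.975), the adaptor Blnk (0.67 ± 0.29, adjusted p = 0.337) and the scaffold Bank1 (0.026 ± 0.27, adjusted p = 0.976). Ms4a1, which encodes CD20, was under the filter, at 5.26 and 9.11 on OGFRL1 arrays and 13.3 and 11.1 on EGFP arrays; it was chosen after its values were seen. Of 11 immunoglobulin constant genes 2 were tested, Igha and Ighg3, and 0 passed. Igha, the heavy chain of IgA, had 31.2 and 1.35 on OGFRL1 arrays, against 98.8 and 22.9 on EGFP arrays, a log2 difference of -2.001 ± 0.993 (adjusted p = 0.406) with groups that overlapped. Of 10 plasma cell genes 6 were tested, 0 passed and the median was 0.26. The brightest of that list, Xbp1 (-0.295 ± 0.135, adjusted p = 0.367) and Sdc1 (0.48 ± 0.21, adjusted p = 0.341), are also expressed by hepatocytes.

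Of 29 further NK cell genes, 26 had a probe set of 1 symbol, 18 were under the filter and 8 were tested, with 0 calls in either direction and a median of -0.26. Ccl5, a chemokine that NK cells share with T cells and macrophages, had 21.4 and 49.3 on OGFRL1 arrays, against 165 and 41.4 on EGFP arrays. Its groups overlapped, and the log2 difference of -1.26 ± 0.64 (limma adjusted p = 0.415) was -2.22 ± 0.41 without EGFP 2 (adjusted p = 0.0210) and -0.31 without EGFP 1, which did not pass. Klrk1, which encodes the activating receptor NKG2D, had a log2 difference of -0.20 ± 0.45 (adjusted p = 0.876) and S1pr5, a receptor in NK cell egress, of 0.265 ± 0.291 (adjusted p = 0.726). Ncr1, the NK receptor NKp46, was under the filter at 4.94 and 12.0 on OGFRL1 arrays and 20.8 and 4.80 on EGFP arrays; it too was chosen after its values were seen. Of 17 other granzymes and granule genes 9 were tested, with 0 calls and a median of -0.27. The 8 under the filter were all the granzymes of that list, so the median covers other granule genes only. Of the 9, 1 was lower on both OGFRL1 arrays, against 20.5% of all genes. Another 1 was higher on both, against 3224 of all 11942 genes. The lower one was the lysosomal Lamp1, found in all cells, with -0.35 ± 0.15 (limma adjusted p = 0.319). The higher one was Rab27a, chosen after its values were seen, at 53.9 and 38.0 on OGFRL1 arrays, against 21.0 and 25.1 on EGFP arrays.

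Markers of other cells showed 2 layouts over the arrays, the first of which was noticed after the values were seen. The 10 pan-leukocyte genes had their 2 highest arrays in OGFRL1 2 and EGFP 1 in 9 of 10 cases, against 18.4% of all genes tested, with summed signals of 1648 and 2859 on OGFRL1 arrays 1 and 2 and 2709 and 1526 on EGFP arrays 1 and 2. The same held for 8 of 10 Kupffer cell and macrophage genes, whose summed signals were 7005 and 11425 on OGFRL1 arrays and 13078 and 5644 on EGFP arrays, for 6 of 8 NK cell genes, for 6 of 9 granule genes and for 4 of 7 B cell genes. It held for 2 of 6 neutrophil, 2 of 5 dendritic cell, 1 of 3 mast cell and basophil and 1 of 6 plasma cell genes, and for 0 of 6 T cell, 0 of 2 immunoglobulin constant and 0 of 9 hepatocyte genes. Ctsw, which had this layout, is counted in both the NK cell and the granule list. Ptprc, the CD45 of all leukocytes, had 207 and 413 on OGFRL1 arrays, against 393 and 199 on EGFP arrays, so it differed within each group by more than between the groups (log2 difference 0.065 ± 0.41, limma adjusted p = 0.961). Cd79b, Gzma, Nkg7 and the Ighm probe sets 1427870_x_at, 1425247_a_at and 1425324_x_at had OGFRL1 2 and EGFP 1 as their 2 highest arrays too. The margin was small for Cd79b, at 18.8 on OGFRL1 2 against 18.1 on OGFRL1 1. It was also small for Nkg7, at 11.9 on OGFRL1 2 against 11.5 on EGFP 2. Jchain, both Prf1 probe sets, Ighm probe set 1427756_x_at and the 3 Ighm probe sets that were lower on both OGFRL1 arrays did not have this layout. The part of the leukocyte level in the members' values was not tested.

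**Figure D4:**
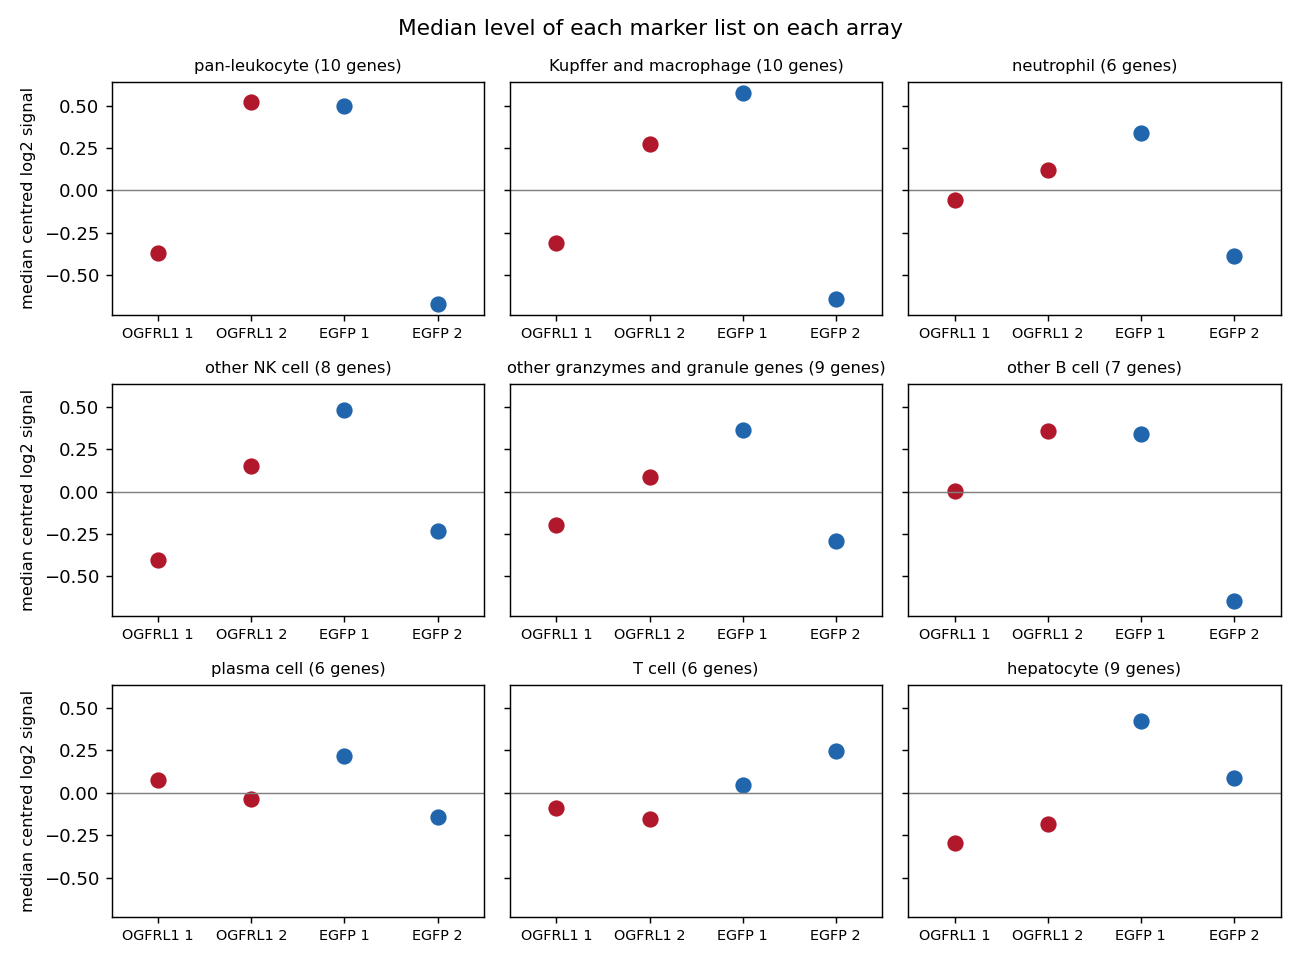
Median, over the tested genes of each list, of the log2(signal + 3.51) of a gene minus its mean over the 4 arrays, for each array (OGFRL1 in red, EGFP in blue). The pan-leukocyte and macrophage lists are high on OGFRL1 2 and EGFP 1 and low on OGFRL1 1 and EGFP 2, while the hepatocyte list is lower on both OGFRL1 arrays.

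The second layout followed the groups. All 9 tested hepatocyte genes were lower on both OGFRL1 arrays, against 20.5% of all genes, with a median of -0.49 and 0 past the threshold; Apoa1 was at 9881 and 10641 on OGFRL1 arrays, against 15078 and 12630 on EGFP arrays. Such hepatocyte products were bright on all 4 arrays, which are labelled liver. Of 20 T cell genes 6 were tested, with 0 calls and a median of -0.44. The T cell list did not share 1 direction. Of the 6, 2 were lower on both OGFRL1 arrays, Zap70 and Lat, against 20.5% of all genes. Higher on both was 1, Thy1, against 3224 of all 11942 genes. The log2 differences of the 6 ran from -0.96 to 0.91, the highest being that of Thy1. Zap70, a kinase of T cell and NK cell receptors, had 173 and 170 on OGFRL1 arrays, against 248 and 255 on EGFP arrays, and a log2 difference of -0.54 ± 0.14 (limma adjusted p = 0.152). The T cell receptor subunit Cd3d, chosen after its values were seen, lay between 0.649 and 4.45 on all 4 arrays, under the filter. Of the neutrophil list 6 genes were tested, of the mast cell and basophil list 3 and of the dendritic cell list 5, with 0 calls each and medians of -0.10, -0.12 and 0.18. At an unadjusted limma p under 0.05 the lists held 6 of 9 hepatocyte, 2 of 9 granule and 1 of 6 T cell genes, against 15.3% of all genes. Each of the other lists held 0.

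The genes whose levels lay nearest the members' mean were found from the mean profile of each kind over the 4 arrays, centred on 0 on the log2 scale. That mean does not stand for every member. Jchain was higher on EGFP 2 than on either OGFRL1 array, and Prf1 probe set 1450335_at was lowest on EGFP 1. Nkg7 and 1450335_at, both in the NK cell mean, reached the filter only through the group in which each was brighter. Ighm entered as 1427870_x_at, which 3 of its 7 tested probe sets did not follow. The mean of the 3 tested B cell genes was -0.12 and -0.071 on OGFRL1 arrays 1 and 2, and 0.52 and -0.32 on EGFP arrays 1 and 2. Denn2b, D930048N14Rik, Trim21, Nrf1 and Mettl17 lay nearest, at root mean square distances of 0.015 to 0.034 on the log2 scale. The mean of the 3 tested NK cell genes was -0.50 and 0.17 on OGFRL1 arrays and 0.47 and -0.14 on EGFP arrays, and Ttl, Gm29538, Bcl3, Gimap7 and Zfp954 lay nearest, at 0.038 to 0.052. Over 4 arrays and 11942 genes such closeness is a description only.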

How the data were processed

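Per the labels, liver RNA of 2 OGFRL1 and 2 EGFP samples was made into biotin-labelled cRNA. The authors deposited 1 MAS5 signal intensity per probe set on a linear scale; MAS5 is named in the submitters' processing notes, and its version and detection calls are not given in the sources used here. The table held 45101 probe sets, of which 34945 had 1 gene symbol, 932 several, 9160 none and 64 were controls. Intensities were log2-transformed after adding 3.51, the 25th percentile, with no further normalization. Probe sets with a mean of at least 11.6 were fitted with limma 3.58.1 in R 4.3.3 (eBayes with an intensity trend, 2-sided), adjusted by Benjamini-Hochberg over 20238 probe sets, or over 11942 genes with the brightest probe set of each; the threshold was 0.05. The fits had 2 residual degrees of freedom, and the number of arrays limits the precision. The procedure was tested on simulated data.

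The members and lists were chosen with earlier results of these data known. Of each other list, genes past the threshold or else the 3 brightest were to be named; not every such gene is printed. Genes without a probe set of 1 symbol were not analysed here. Coordinates and sequences are RefSeq's (GRCm38.p6). Alternatives were quantile normalization, median scaling, a floor, 4 times the pseudocount, no filter, a filter at 76.6, the mean over probe sets, no trend, a replicate block and each array left out. Figures were drawn with matplotlib 3.10.9 in Python 3.11.15.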

Additional observations from a re-analysis of the deposited data

How the results depend on the processing

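The count of 0 member genes past the threshold held under quantile normalization, median scaling, a floor, 4 times the pseudocount, no filter, the stricter filter, the mean over probe sets, no trend and the replicate block. Leaving out single arrays gave 0 to 1 member genes and 0 to 1 member probe sets. The 1 gene was Ighm, with opposite signs without EGFP 1 and without EGFP 2. Over all genes the count was 61, and it was 94 with 4 times the pseudocount, 13 with the mean over probe sets, 4 after quantile normalization, 2 under the stricter filter, 0 without a filter, 0 without an intensity trend (2179 and 1654 at an unadjusted p under 0.05) and 0 to 873 with an array left out; that 2 arrays make a group limits every count.

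Across the arrays left out, the log2 difference ran from -0.35 to 0.31 for Cd79b, from -1.03 to 0.49 for Gzma, from -1.04 to 0.74 for Ighm (1427870_x_at), from -1.64 to -0.53 for Nkg7, which was under the filter without EGFP 1, and from -0.56 to 0.75 for Prf1. The -0.56, without OGFRL1 2, comes from 1451862_a_at, which is then the brighter Prf1 probe set; 1450335_at was at 0.059 there, under the filter, and at -0.048 without EGFP 1. Cd79b was at 0.023 with median scaling; the cause was not tested. Prf1 was at -0.013 when its probe sets were averaged, the mean of 0.35 and -0.38. Jchain, Nkg7 and the Ighm probe sets 1427351_s_at and 1427329_a_at kept their sign in every setting that tested them, but where groups do not overlap leaving out an array cannot change it. The median of the B cell list ran from -0.29 to 0.67, and the NK cell list had 0 to 1 calls, the 1 being Ccl5 without EGFP 2.

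Same-numbered arrays did not deviate together (correlation -0.28 across genes), and no label ties a number to an animal or a day. With the replicate block 0 member genes and 0 member probe sets passed. The block cannot change a log2 difference in this balanced design (-0.15 for 1427870_x_at), and 1427351_s_at had an adjusted p of 0.116. The crossed pairing, chosen after seeing the data, called 934 genes, 0 member genes, 1 member probe set and 1 gene of the NK cell list.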
